A study of Mus musculus with 5 samples.

Results

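Mef2a, Mef2c, Mef2d and Srf, genes of the MEF2 family and that of serum response factor, were followed in single nuclei of mouse hindlimb muscle. They were taken by gene symbol, and all 4 were found once each among the 32285 genes of every count table. A single-nucleus multiome (RNA and open chromatin read from the same nucleus) had been made of hindlimb skeletal muscle to follow fibers through development and after the loss of a calcium channel. There were 5 libraries, 1 per group, each from pooled hindlimbs. The KO library came from Cacna1s-/- C57bl6n fetuses at E18.5 (26 hindlimbs), which carry a KOMP allele that deletes coding sequence of the alpha subunit of the skeletal muscle L-type calcium channel in every cell. The WT libraries came from C57bl6n mice without that allele at E14.5 (56 hindlimbs), E18.5 (14), postnatal day P5 (8) and in the adult (4). Nuclei had been sorted into fractions positive and negative for PCM1, a protein of the myonuclear envelope, and mixed in equal volumes, so the share of each cell type was set by the sort and by the tissue together.

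MEF2 proteins and SRF are MADS-box transcription factors. MEF2 dimers bind an AT-rich site, often beside the E-boxes of the myogenic bHLH factors, and turn on genes of the sarcomere and of muscle metabolism. Class IIa histone deacetylases hold them silent until calcium-dependent kinases or calcineurin release them. SRF binds the CArG box and works with myocardin-related cofactors, which respond to actin, on genes of the cytoskeleton and contractile apparatus, or with ternary complex factors of the ETS family on immediate early genes. The calcium channel Cav1.1, encoded by Cacna1s, couples the action potential to calcium release in the fiber, which places it upstream of the calcium-dependent steps.

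The files held 3621 to 5407 nuclei per library, 22301 in all, of which 21154 passed limits on counts taken from the study's methods. The KO file held fewer barcodes than the KO nuclei the study states, and more WT nuclei passed here at each age than it states. A lower limit on open chromatin counts, given in a supplementary legend of the study, was not applied. A nucleus was called a myonucleus where Ttn, the giant sarcomeric protein titin, made at least 1% of its UMIs (unique molecular identifiers, 1 per captured RNA). This gave 987 KO myonuclei and 1867, 1579, 1733 and 4429 WT myonuclei at E14.5, E18.5, P5 and in the adult, with 11107021 UMIs in KO and 10156121, 12672294, 12227658 and 19758491 UMIs in WT. Between 19 and 210 nuclei per library lay near the cut, at 0.8 to 1.2% Ttn. All 13 myonuclear markers were at least 2-fold higher in myonuclei than in the other nuclei of the same library, except in the adult, where 11 of 13 were. Ttn is among these markers, and its own difference was fixed by the cut. Cacna1s itself had 8 UMIs in KO myonuclei and 2390 UMIs in WT E18.5 myonuclei, a KO over WT ratio of 0.00382. Between 17 and 47 barcodes were shared by each pair of libraries, at most 0.942% of the smaller library. With 1 library per group no difference could be tested. Levels are CPM, the UMIs of a gene summed over a class and scaled to 1000000 UMIs, with 95% intervals, and intervals cover counting error only. A difference was called where it reached 2-fold, a rule of size, and no p-value was computed.

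Mef2a lies on chromosome 7 (67231163 to 67372858, minus strand), Mef2c on chromosome 13 (83504034 to 83667080, plus strand), Mef2d on chromosome 3 (88142372 to 88172086, plus strand) and Srf on chromosome 17 (46548329 to 46556175, minus strand), all in GRCm38. RefSeq gives 1 start site each to Mef2a, Mef2d and Srf, and 3 to Mef2c. The sequences of the 3 Mef2c starts are shown because their accessibility differed between cell types, and that of Srf because it holds the element that SRF binds. Each is the 250 bases before the start in GRCm38.p6, from RefSeq, 5′ to 3′ on the gene's strand. Capitals mark matches to the CArG box (Srf) or to the E-box CANNTG (Mef2c), the binding motif of the myogenic bHLH factors, searched on both strands. The first Mef2c start is chr13:83503784-83504033 (plus strand), the second chr13:83523406-83523655 (plus strand), the third chr13:83573357-83573606 (plus strand), and Srf is chr17:46556163-46556412 (minus strand).
Mef2c start 1: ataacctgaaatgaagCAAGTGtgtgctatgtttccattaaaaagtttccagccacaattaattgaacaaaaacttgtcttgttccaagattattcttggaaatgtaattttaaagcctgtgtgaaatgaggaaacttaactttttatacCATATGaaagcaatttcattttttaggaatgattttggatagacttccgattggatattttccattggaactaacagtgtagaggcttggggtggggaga
Mef2c start 2: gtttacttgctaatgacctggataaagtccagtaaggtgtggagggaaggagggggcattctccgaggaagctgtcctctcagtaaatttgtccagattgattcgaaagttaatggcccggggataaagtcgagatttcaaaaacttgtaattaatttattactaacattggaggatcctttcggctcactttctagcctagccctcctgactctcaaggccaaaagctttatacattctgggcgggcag
Mef2c start 3: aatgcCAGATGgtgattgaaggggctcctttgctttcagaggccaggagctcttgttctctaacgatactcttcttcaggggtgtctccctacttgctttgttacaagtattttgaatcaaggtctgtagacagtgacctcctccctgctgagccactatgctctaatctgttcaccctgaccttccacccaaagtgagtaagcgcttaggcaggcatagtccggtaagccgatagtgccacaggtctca
Srf: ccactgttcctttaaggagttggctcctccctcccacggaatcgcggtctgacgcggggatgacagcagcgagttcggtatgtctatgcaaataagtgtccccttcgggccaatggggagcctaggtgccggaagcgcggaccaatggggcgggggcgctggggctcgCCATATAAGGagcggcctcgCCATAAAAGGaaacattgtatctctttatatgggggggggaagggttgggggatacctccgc
The first Mef2c start held the E-box matches CAAGTG and CATATG, the second held no match to any of the motifs searched, and the third held CAGATG. The Srf window held a pair of CArG boxes, CCATATAAGG and CCATAAAAGG, beginning 82 and 62 bases before the start. A CArG box match was present in 1.47% of all 32851 promoter windows of this length, a match to the MEF2 site in 2.92% and an E-box in 66.2%. The windows of Mef2a and Mef2d held no match to any of the 3 motifs, and no member's window held a MEF2 site match. GC content was 33.6, 44.8 and 49.6% in the 3 Mef2c windows, 59.6% in Srf, 61.6% in Mef2a and 73.2% in Mef2d, beside a median of 52.4% over all windows. A match is a description of the letters and not an observed binding site.

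Mef2c was the most abundant member in myonuclei. Per kilobase of gene, a scale that divides CPM by gene length, Mef2c had 25.1 CPM per kb in KO myonuclei and 33.3, 20.2, 29.3 and 18.1 CPM per kb in WT myonuclei at E14.5, E18.5, P5 and in the adult. Mef2d had 5.14 CPM per kb in KO and 4.09, 6.55, 6.56 and 8.33 CPM per kb in WT, and Mef2a had 6.15 CPM per kb in KO and 3.95, 3.72, 5.2 and 3.51 CPM per kb in WT. Srf was lowest, with 1.15 CPM per kb in KO and 0.979, 1.38, 0.677 and 0.561 CPM per kb in WT. Mef2c therefore made 66.9% of the members' summed per-kilobase level in KO myonuclei and 59.4 to 78.7% in WT myonuclei, against 30.8% in the other nuclei of KO and 17.2 to 33.2% in the other nuclei of WT. On this scale Mef2a came after Mef2c in KO, whereas Mef2d did in WT at E18.5, P5 and in the adult, and at E14.5 the intervals of Mef2d and Mef2a overlapped. In CPM not divided by length, Mef2a was above Mef2d in the myonuclei of every library. Gene length includes introns, which hold many reads of nuclear RNA. Whether counts rise with gene length in these libraries was not tested. Mef2b, the family gene outside this set, was nearly absent, at 0.07 to 0.22 CPM per kb in WT myonuclei.

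Mef2c was the member that set myonuclei apart from the other nuclei. Mef2c had 4096 CPM in KO myonuclei and 535 CPM in the other KO nuclei. In WT it had 5426, 3299.9, 4775 and 2952 CPM in myonuclei at E14.5, E18.5, P5 and in the adult, against 617, 357, 423 and 261 CPM in the other nuclei. The myonuclei over other nuclei ratio was 7.65 (7.49 to 7.82) in KO and 8.80, 9.24, 11.3 and 11.3 in WT. Mef2d, a broadly expressed family member, had 153 CPM in KO myonuclei and 81.0 CPM in the other KO nuclei, and 121, 195, 195 and 247 CPM in WT myonuclei against 67.7, 87.7, 77.2 and 124 CPM in the other WT nuclei. Its ratios were 1.89 in KO and 1.79, 2.22, 2.53 and 1.99 in WT, so it stood higher in myonuclei of every library, near the 2-fold line. Mef2a, also broadly expressed, had 872 CPM in KO myonuclei and 603 CPM in the other KO nuclei, and 559, 527, 736 and 497 CPM in WT myonuclei against 682, 529.9, 533 and 445 CPM in the other WT nuclei. It was lower in myonuclei at E14.5 (0.819), level at E18.5 in WT (0.994) and higher at P5 (1.38), in the adult (1.12) and in KO (1.45). Srf was thinly covered, with 100 UMIs in KO myonuclei and 65 to 137 UMIs in each WT library's myonuclei, or 9 CPM in KO and 7.68, 10.8, 5.32 and 4.40 CPM in WT. Its ratio to the other nuclei was 3.02 (2.15 to 4.29) in KO and 3.15 (2.30 to 4.36) in WT at E18.5, with 1.86 (1.29 to 2.72) at E14.5, and the intervals at P5 and in the adult included 1. In KO, 2 of 4 members (Mef2c and Srf) passed 2-fold higher, beside 10.7% of all genes measured. In WT it was 1 of 4 at E14.5 (Mef2c, beside 10.6% of genes), 3 of 4 at E18.5 (Mef2c, Mef2d and Srf, beside 12.9%), 2 of 4 at P5 (Mef2c and Mef2d, beside 12.5%) and 1 of 4 in the adult (Mef2c, beside 13.2%).

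**Figure D1:**
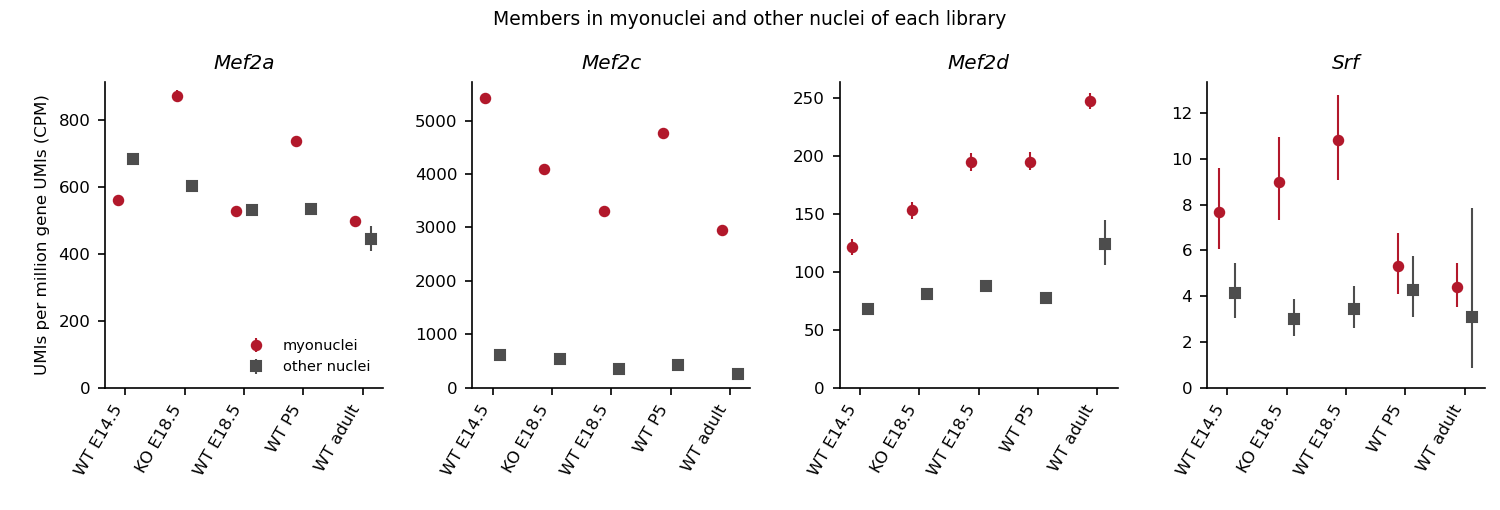
Level of each member (CPM, each panel on its own linear axis from 0) in myonuclei (circles) and in the other nuclei (squares) of each library, KO beside WT E18.5 and the WT stages in order, with bars for the 95% counting interval. Mef2c sits at 2952 to 5426 CPM in myonuclei and at 261 to 617 CPM in the other nuclei, while Mef2a is at 559 CPM in myonuclei and 682 CPM in the other nuclei at E14.5.

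The share of nuclei with a UMI gave the same order of the genes as CPM did. Every nucleus was thinned to 1000 UMIs, because the median depth of myonuclei was 10333 UMIs in KO and 3356 to 6976 UMIs in WT, and shallower nuclei were left out (7 in KO and 5 to 464 in WT myonuclei). After thinning, Mef2c was seen in 91.4% of KO myonuclei and 22.2% of other KO nuclei, and in 95.8, 87.9, 95 and 86.2% of WT myonuclei against 20.8, 16.6, 19.4 and 20.0% of other WT nuclei at E14.5, E18.5, P5 and in the adult. Unthinned, Mef2c was seen in 99.1% of KO and 93.5 to 99.3% of WT myonuclei. Mef2a was seen in 55.5% (52.3 to 58.7) of thinned KO myonuclei and 36.1% (33.8 to 38.6) of thinned WT E18.5 myonuclei, beside 95% of KO and 86.4% of WT myonuclei unthinned. Mef2d was seen in 15.2% of thinned KO myonuclei and 12.2 to 22.1% of thinned WT myonuclei. Srf was seen in under 1% of thinned myonuclei in every library (0.51% in KO and 0.479 to 0.929% in WT), too few to order the libraries. No class free of these RNAs was set apart, so the part of free RNA in the low levels was not tested.

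The other nuclei were split by clustering and named from marker genes, so that each name stands for nuclei like that type (macrophage-like and so on), and classes with at least 50 nuclei are described. Mef2c was second highest in macrophages, where MEF2C is known as a myeloid factor, with 1715 CPM in KO and 1625 and 2409 CPM in WT at E18.5 and P5. Smooth muscle cells and pericytes followed, with 1608 CPM in KO and 1149 and 1706 CPM in WT at E18.5 and P5, and endothelial cells had 1059 CPM in KO and 1154, 828 and 961 CPM in WT at E14.5, E18.5 and P5. The intervals of macrophages (1613 to 1821) and smooth muscle (1503 to 1719) overlapped in KO. Schwann cells and glia had 789.6 CPM in KO and 1127 CPM in WT at E14.5. Myogenic progenitors, the cells that form fibers, had less Mef2c than these vascular and immune cells, 322 CPM in KO and 392, 295 and 96.1 CPM in WT at E14.5, E18.5 and P5. Mesenchymal cells were at 141 CPM in KO and 97.3 to 253 CPM in WT, and adult adipocytes were lowest at 73.7 CPM (50.1 to 105). The mesenchymal value of 253 CPM was that of the adult. There nearly all mesenchymal nuclei came from a cluster that also held 6 of 13 myonuclear markers.

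The order was different for Mef2a. Macrophages had 1150.1 CPM in KO and 913 and 1104 CPM in WT at E18.5 and P5, smooth muscle cells and pericytes 932 CPM in KO and 945 and 951 CPM in WT at the same ages, and endothelial cells 875 CPM in KO and 888, 769 and 699 CPM in WT at E14.5, E18.5 and P5. At E18.5 in WT the intervals of macrophages, smooth muscle and progenitors overlapped. Myogenic progenitors had 799 CPM in KO and 1208, 899.8 and 602 CPM in WT at E14.5, E18.5 and P5, so Mef2a was above the level of WT myonuclei in progenitors at E14.5 and E18.5 and below it at P5. Of Mef2d, progenitors had 115 CPM in KO and 120.2, 151 and 124 CPM in WT at E14.5, E18.5 and P5, while mesenchymal cells had 52.9 CPM in KO and 49.1, 65.2, 64.8 and 133 CPM in WT at E14.5, E18.5, P5 and in the adult. The adult mesenchymal nuclei were those of the cluster with myonuclear markers, and the part of myonuclear RNA in their levels was not tested. Srf had at most 32 UMIs in any named class, which could not order the classes.

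**Figure D2:**
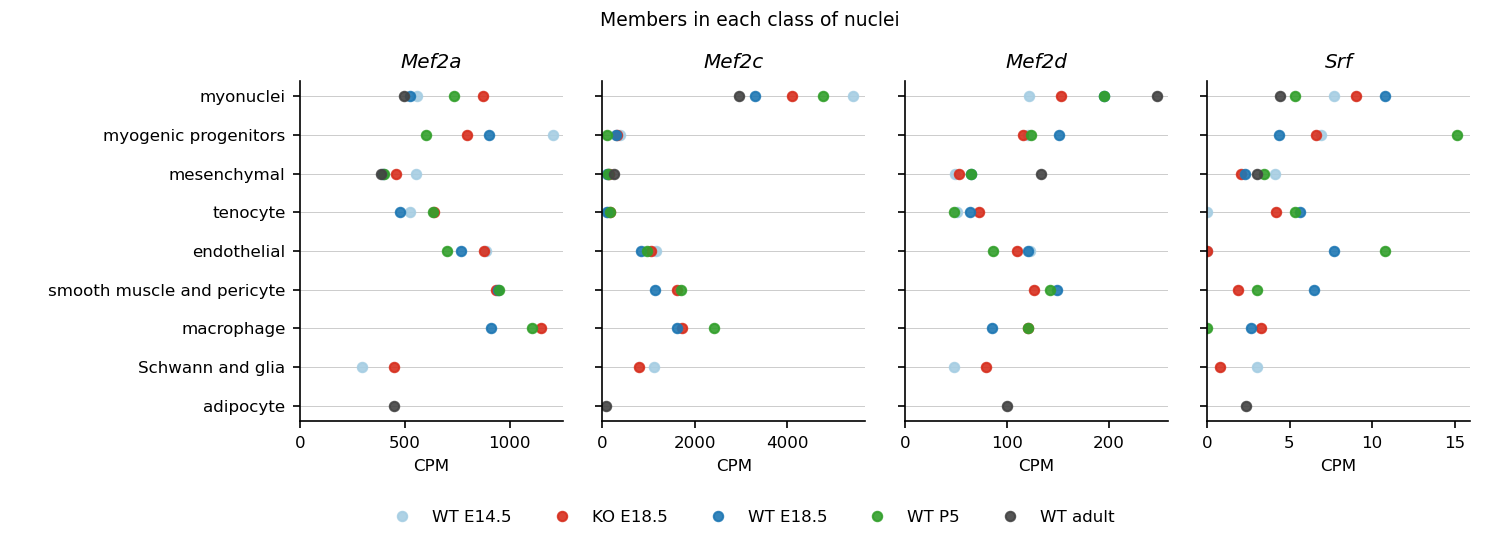
Level of each member (CPM, each panel on its own linear axis) by class of nuclei, 1 point per library, for classes of at least 50 nuclei. Mef2c is highest in myonuclei and next in macrophages and smooth muscle, while Mef2a in macrophages, smooth muscle and endothelial cells lies above WT myonuclei at E18.5.

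Within myonuclei the members split clusters at E14.5. Of 1867 myonuclei at that stage, 714 fell in a cluster led by Fstl4 and Myh7b and 974 in a cluster led by Corin and Gja5. Mef2a had 990.2 CPM (957 to 1025) in the cluster led by Fstl4 and 269 CPM (256 to 284) in that led by Corin. Mef2d had 185 CPM in the first and 81.8 CPM in the second, and Mef2c 7388 and 4737 CPM. Srf showed no such contrast, with 8.48 CPM (5.63 to 12.3) and 7.97 CPM (5.77 to 10.7). Because the clusters were formed on the expressed genes, these are descriptions of the clusters and not tests. At E18.5 in WT a cluster of 87 nuclei led by Tigd4, Corin and Col22a1, the last a collagen of the muscle-tendon junction, had 1597 CPM of Mef2c, against 3407 CPM in the rest of the myonuclei, and 282 CPM of Mef2a, against 542 CPM. At P5 the cluster led by Myh7 and Myl2, genes of slow fibers, held 61 nuclei with 6948 CPM of Mef2c, against 4692 CPM in the rest. Adult nuclei led by Myh2 and Myh1, the fast IIa and IIx myosins, had 285 CPM of Mef2d (268 to 302), against 238 CPM in the rest, and 413 CPM of Mef2a, against 518 CPM.

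Across the WT stages Mef2d was the member whose level in myonuclei was highest in the adult. Its adult over E14.5 ratio was 2.04 (1.91 to 2.17), 1 of 4 members at least 2-fold higher, beside 15.7% of all genes. With nuclei thinned to 1000 UMIs and with the mean of single-nucleus CPM it fell short of 2-fold, at 0.95 and 0.97 log2 units, while Mef2c passed 2-fold lower there, at -1.11 and -1.18. In summed CPM, 6023 of all 14201 genes measured were at least 2-fold lower for adult over E14.5. Step by step, the E18.5 over E14.5 ratio of Mef2d was 1.60 (1.5 to 1.72), that of P5 over E18.5 was 1.00 (0.946 to 1.06) and that of the adult over P5 was 1.27 (1.21 to 1.33). Mef2c had ratios of 0.608 (0.6 to 0.616), 1.45 (1.43 to 1.47) and 0.618 (0.611 to 0.625) at the same steps. Mef2a gave 0.942, 1.40 and 0.676 for the same steps. Srf had a P5 over E18.5 ratio of 0.492 (0.360 to 0.665) from 65 and 137 UMIs, the only member past 2-fold in a single step, beside 21.4% of all genes that were at least 2-fold lower and 7.68% that were higher. No member passed 2-fold for E18.5 over E14.5 (17.3% of genes higher, 9.94% lower) or for adult over P5 (8.31% higher, 33.8% lower).

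The median gene itself moved between stages, so the members also have a position relative to it. The median log2 ratio over all genes measured was 0.17, -0.37 and -0.40 at the 3 steps in order, -0.65 between the adult and E14.5, and -0.03 between KO and WT. Relative to the median gene, Mef2d stood at 1.68 log2 units for adult over E14.5 and Mef2a at 0.48, while Mef2c stood at -0.23 and Srf at -0.15. The sign of Mef2a for adult over E14.5 therefore turned from -0.17 in CPM to 0.55 with TMM factors, which scale on the bulk of genes. It also turned with Ttn of at least 2%, as did that of Mef2a for E18.5 over E14.5, from -0.09 to 0.12. That cut kept 47.8% of the myonuclei at E14.5, 75.0% at E18.5 in WT and 99.4% in the adult. For adult over P5 the sign of Srf turned from -0.27 to 0.22 with TMM factors and to 0.34 with median-of-ratios factors, and that of Mef2a from -0.57 to 0.04 with median-of-ratios factors only. With TMM factors the call of Srf for P5 over E18.5 was lost, at -0.69, as it was with nuclei thinned to 1000 UMIs, at -0.24. Thinning also turned the sign of Srf for E18.5 over E14.5, which was 0.49, to -0.70. Mef2c for adult over P5 shrank to -0.20 with TMM factors and to -0.09 with median-of-ratios factors, beside -0.69 in CPM, and for adult over E14.5 to -0.16 and -0.09, beside -0.88. Its signs at the 3 steps, and that of Mef2d for adult over E14.5, were the same under both scalings.

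In Cacna1s-/- myonuclei at E18.5, Mef2a was higher, Mef2c moderately higher and Mef2d lower than in WT, and none of the differences reached 2-fold. Mef2a had 872 CPM (855 to 889.6) in KO and 527 CPM (514 to 539.7) in WT, a ratio of 1.66 (1.60 to 1.71). Mef2c had 4096 CPM (4058 to 4134) in KO and 3299.9 CPM (3268 to 3332) in WT, a ratio of 1.24 (1.22 to 1.26). Mef2d had 153 CPM in KO and 195 CPM in WT, a ratio of 0.785 (0.737 to 0.835), and Srf had 9 CPM in KO and 10.8 CPM in WT, a ratio of 0.833 whose interval (0.637 to 1.09) included 1. Thus 0 of 4 members were at least 2-fold higher, beside 6.2% of all 14589 genes measured, and 0 of 4 were at least 2-fold lower, beside 5.52%. How far a second pair of libraries would move these ratios is unknown, since each genotype had 1 pool.

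The Mef2a difference was present in each cluster with at least 50 myonuclei in both libraries. In the 3 clusters named as myonuclei, KO over WT ratios of Mef2a were 1.97, 1.43 and 1.71, each with an interval above 1, those of Mef2c were 1.00, 0.841 and 1.16, on both sides of 1, and those of Mef2d were 1.00, 0.770 and 0.790. The other cluster stayed unnamed because it held mesenchymal markers (9 of 10) beside myonuclear ones (12 of 13), and its nuclei above the Ttn limit gave 1.36 for Mef2a, 1.46 for Mef2c and 0.741 for Mef2d. Srf was covered by at most 53 UMIs per library and cluster, and its intervals all included 1. One named cluster held 477 KO and 60 WT nuclei and another 56 KO and 639 WT nuclei, so the genotypes filled the clusters unequally. Lysmd4, which lies on the opposite strand and overlaps Mef2a, had a KO over WT ratio of 1.62 (1.46 to 1.80) from 848 UMIs in KO myonuclei and 598 UMIs in WT myonuclei. Whether counting kept the strands apart, and so told reads of Mef2a and Lysmd4 apart where they overlap, is not stated in the sources used here. Lysmd4 was counted at 76.3 CPM in KO and 47.2 CPM in WT, and its part in the Mef2a counts was not tested. The antisense gene overlapping Mef2d, 1700113A16Rik, had 49 UMIs in KO myonuclei and 68 UMIs in WT myonuclei.

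Markers of other cell types moved with genotype in the same myonuclei. The 13 myonuclear markers, with Ttn among them, summed to 41616 CPM in KO and 49926 CPM in WT, a ratio of 0.834. The 9 progenitor markers, all detected, summed to 345 CPM in KO and 183 CPM in WT, the 10 endothelial markers to 133 CPM in KO and 71.0 CPM in WT, the 10 mesenchymal markers to 332 CPM in KO and 493 CPM in WT, and the keratinocyte list to 1051 CPM in KO, with 2 of its genes at 0, and 287 CPM in WT, with 4 at 0. The keratinocyte list was far lower in the other nuclei, at 66.2 CPM in KO and 8.70 CPM in WT. No cluster was named as keratinocytes, so this list does not mark that cell type here. Tenocyte markers summed to 21.2 CPM in KO and 88.9 CPM in WT, chondro-osteogenic markers to 18.8 CPM in KO and 46.7 CPM in WT, adipocyte markers to 88.3 CPM in KO and 48.1 CPM in WT, erythroid markers to 27.6 CPM in KO and 13.3 CPM in WT, and neuron markers to 23.1 CPM in KO and 12.9 CPM in WT. The macrophage, smooth muscle, Schwann cell and lymphocyte lists had KO over WT ratios of 1.32, 0.816, 1.14 and 1.17. The median depth was 10333 UMIs in KO myonuclei and 6976 UMIs in WT myonuclei, and 81.8% of KO and 84.8% of WT myonuclei lay in clusters named as myonuclei. Without the nuclei of other clusters the log2 ratio of Mef2a was 0.82, beside 0.73 with them, and Mef2c stood at 0.27 and Mef2d at -0.37. The part of the marker levels in the members' differences was not tested further.

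The other nuclei of KO and WT at E18.5 gave different values. In all other nuclei together Mef2c had 535 CPM in KO and 357 CPM in WT, a ratio of 1.5 (1.45 to 1.55), larger than that in myonuclei, and Mef2a a ratio of 1.14. No member passed 2-fold in either direction, beside 13.5% of genes. By class, Mef2c had ratios of 1.45 in mesenchymal cells, 1.59 in tenocytes, 1.40 in smooth muscle and 1.28 in endothelial cells, and 1.09 in progenitors and 1.06 in macrophages. Mef2a had 799 CPM in KO progenitors and 899.8 CPM in WT progenitors, a ratio of 0.888 (0.828 to 0.952), on the other side of 1 from myonuclei. Its ratios were 1.17 in mesenchymal cells, 1.35 in tenocytes, 1.14 in endothelial cells, 1.26 in macrophages and 0.986 in smooth muscle. Mef2d was at 0.764 in progenitors and 0.811 in mesenchymal cells, near its ratio in myonuclei. Over all other nuclei together, its KO and WT levels lay closer to each other than in either of these classes. Differences between classes were not tested.

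**Figure D3:**
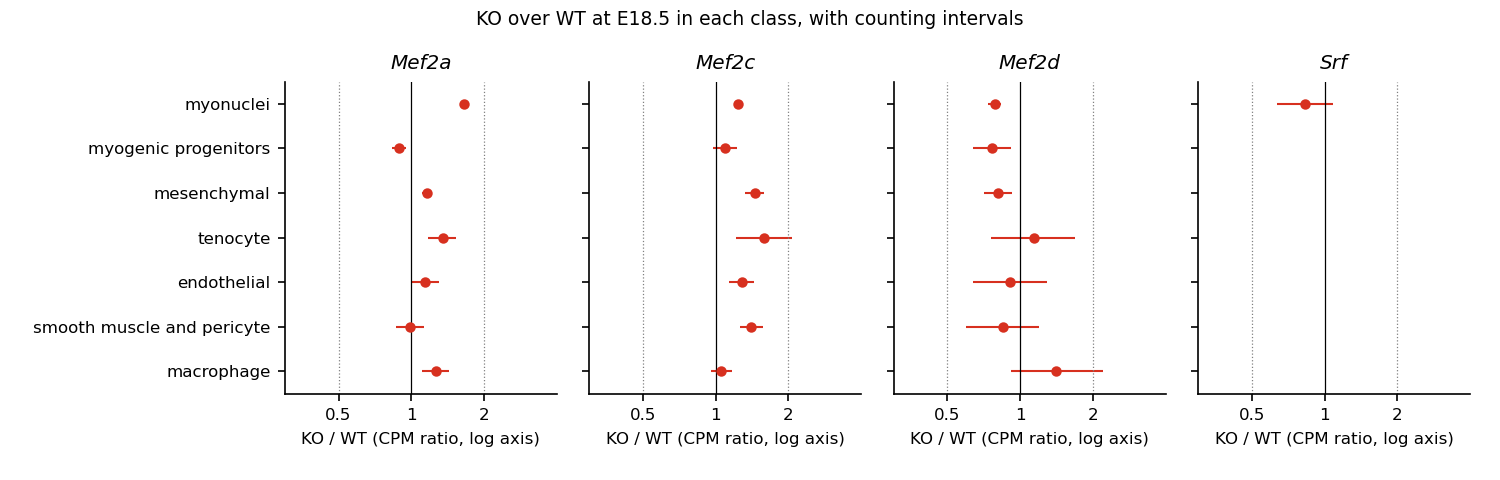
KO over WT ratio of each member at E18.5 (log axis) in each class of nuclei measured in both libraries, with 95% counting intervals, a line at 1 and dotted lines at 2-fold in each direction. Mef2a stands at 1.66 in myonuclei and 0.888 in progenitors, Mef2c at 1.24 and 1.09, and no point for myonuclei passes the 2-fold lines.

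Of the 3 Mef2c start sites, the first was more accessible in myonuclei than in other nuclei, and the second less so in WT. Peaks had been called in each library on its own, and peaks that reach within 1000 bases of a start are summed and given as ATAC CPM, scaled to 1000000 peak counts of the class. At the first start, KO myonuclei had 27.1 ATAC CPM and other KO nuclei 6.75 ATAC CPM, and WT myonuclei had 18.3, 16.9, 34.9 and 29.1 ATAC CPM at E14.5, E18.5, P5 and in the adult, against 5.64, 2.87, 2.23 and 0.301 ATAC CPM in other WT nuclei. The ratios were 4.02 (2.94 to 5.58) in KO and 3.24, 5.88, 15.7 and 96.6 in WT, the last from 1122 and 2 counts with an interval of 26.7 to 799. At the second start, KO myonuclei had 24.0 ATAC CPM and other KO nuclei 29.2 ATAC CPM, and WT myonuclei had 15.7, 18.3, 19.7 and 8.99 ATAC CPM, against 34.4, 39.0, 45.7 and 32.2 ATAC CPM in other WT nuclei. The second start was thus lower in myonuclei in every WT library, with ratios of 0.458, 0.468, 0.432 and 0.279, and at 0.823 (0.662 to 1.02) in KO its interval included 1. These sums join a peak over the start and another centred 1038 to 1058 bases after it. The peak over the start alone had ratios of 0.858 in KO and 0.666, 0.492, 0.625 and 0.482 in WT, past 2-fold at E18.5 and in the adult, and the other peak 0.801 in KO and 0.353, 0.454, 0.333 and 0.202 in WT. At the third start the sums were low, 5.39 ATAC CPM in KO myonuclei and 5.43 to 7.10 ATAC CPM in WT myonuclei, against 8.83 ATAC CPM in other KO nuclei and 3.46 to 7.62 ATAC CPM in other WT nuclei, and they joined different peaks. The KO and P5 sums were 1 peak centred 1337 and 1400 bases before the start, the E14.5 sum 1 peak 746 bases after it, and the E18.5 sum in WT 1 peak on each side (1408 bases before and 732 after). A peak over the start itself, centred 26 bases before it, was called in the adult alone, with another 686 bases after it.

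The starts divided the other classes as well. At the first start progenitors were the named class next to myonuclei at E14.5 and E18.5 in WT, with 11.2 ATAC CPM in KO and 13.2, 9.32 and 0 ATAC CPM in WT at E14.5, E18.5 and P5, the last from 0 counts with an upper limit of 7.24. KO macrophages stood at 19.5 ATAC CPM there, from 6 counts, and WT macrophages had 0 counts at E18.5 and P5. Mesenchymal cells had 3.10 ATAC CPM in KO and at most 2.37 ATAC CPM in WT. The second start was open in endothelial cells, at 76.7 ATAC CPM in KO and 49.5 to 69.5 ATAC CPM in WT, in mesenchymal cells, at 26.5 ATAC CPM in KO and 34.5 to 42.7 ATAC CPM in WT, and in smooth muscle and macrophages, at 46.8 and 51.9 ATAC CPM in KO. The peaks assigned to the third start, which in KO and P5 lay before it, were high in macrophages, at 90.8 ATAC CPM in KO and 51.5 and 62.4 ATAC CPM in WT at E18.5 and P5, and in endothelial cells, at 38.3 ATAC CPM in KO and 53.2 and 52.6 ATAC CPM in WT at E18.5 and P5 (0 counts at E14.5, where the peak lay after the start), while mesenchymal cells stayed between 0.70 and 3.63 ATAC CPM in WT. These class values rest on few counts, for example 28 counts in 95 KO macrophages. The start-site peaks of Mef2a, Mef2d and Srf were open in both kinds of nuclei, at 58.8, 81.8 and 106 ATAC CPM in KO myonuclei, with myonuclei over other nuclei ratios between 0.694 and 1.35 in all 5 libraries.

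Of the 6 start sites, 1 was at least 2-fold higher in myonuclei in KO (beside 17.6% of all peaks measured) and 0 were lower (20.7%). In WT 1 was higher and 1 lower at E14.5 (22.5% and 15.5% of peaks), at E18.5 (18.2% and 23.6%) and at P5 (18.6% and 22.9%), and 2 were higher and 1 lower in the adult (30.9% and 25.8%). The start called higher was the first of Mef2c in every library, joined in the adult by the sum at the third, at 2.05 (1.34 to 3.29), and the start called lower was the second of Mef2c.

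**Figure D4:**
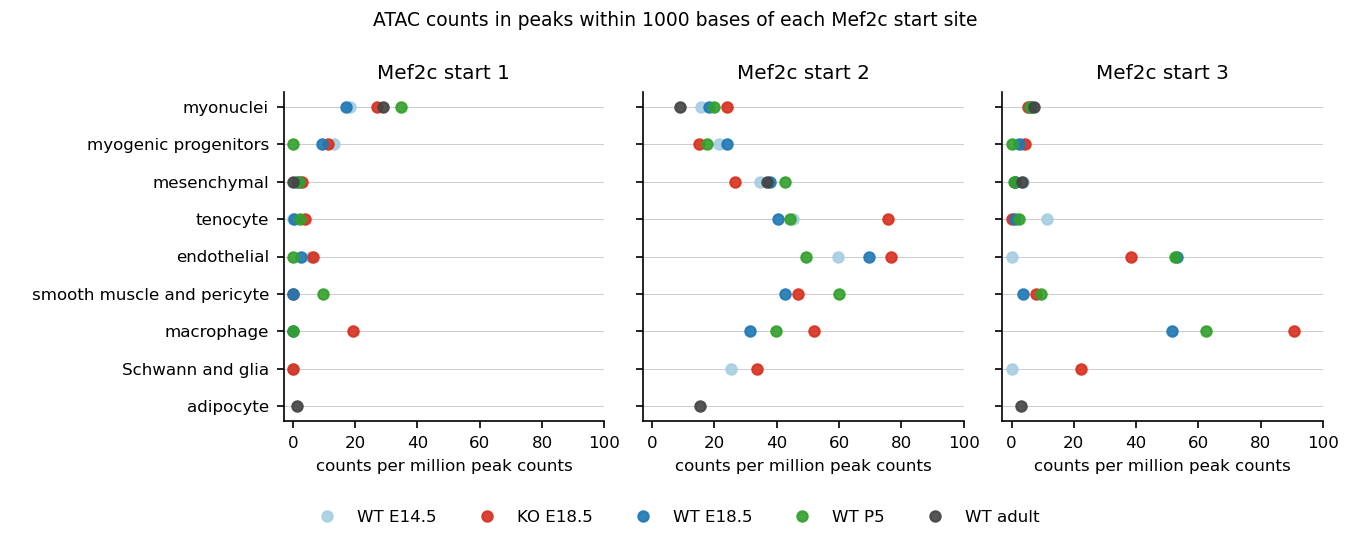
ATAC CPM (counts scaled to 1000000 peak counts) within 1000 bases of each of the 3 Mef2c start sites, by class of nuclei, 1 point per library. The first start is highest in myonuclei (16.9 to 34.9, with KO macrophages at 19.5 from 6 counts), the second in endothelial cells (49.5 to 76.7) and the third in macrophages (51.5 to 90.8 at E18.5, P5 and in KO), where the KO and P5 values come from a peak 1337 to 1400 bases before the start.

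KO and WT myonuclei at E18.5 were set beside each other at the same sites. The first Mef2c start had 27.1 ATAC CPM in KO myonuclei and 16.9 ATAC CPM in WT myonuclei, a ratio of 1.61 (1.31 to 1.97), and the second a ratio of 1.32 (1.06 to 1.62). At the third the sums gave 0.880 (0.565 to 1.34), but 1 peak was summed in KO and 2 in WT. The peak before that start, which both libraries had, held 31 counts (5.39 ATAC CPM) in KO myonuclei and 22 counts (1.48 ATAC CPM) in WT myonuclei, a ratio of 3.64 (2.04 to 6.60). Srf had a ratio of 1.32, Mef2d 1.26 and Mef2a 1.06 (0.935 to 1.21), so the start of Mef2a, the member with the largest difference in RNA, had the ratio nearest to 1 of the 6. By summed peaks 0 of 6 starts passed 2-fold in myonuclei, and over the peaks shared by both libraries, an alternative chosen after seeing the data, 1 of 6 did, the third of Mef2c, beside 8.99% of the peaks matched between the libraries. In the other nuclei the first Mef2c start did, at 6.75 ATAC CPM in KO and 2.87 ATAC CPM in WT, a ratio of 2.35 (1.60 to 3.43), 1 of 6 starts beside 14.1% of peaks, and over shared peaks the third did too, at 8.83 ATAC CPM in KO and 3.89 ATAC CPM in WT (2.27, 1.63 to 3.14). The second start was at 0.749 (0.646 to 0.866) in the other nuclei. The starts of Mef2a, Mef2d and Srf were higher in KO there, at 72.1, 90.8 and 94.0 ATAC CPM, against 53.5, 71.2 and 67.3 ATAC CPM in WT. Over the peaks matched between the libraries, the median log2 ratio of KO over WT in myonuclei was 0.10. KO had 61874 peaks and WT at E18.5 had 91265, and a shift common to the whole library was not tested.

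Within the gene body the same division was seen. A peak 11.3 kb after the first Mef2c start was called in all 5 libraries and had 33.6 ATAC CPM in KO myonuclei and 3.92 ATAC CPM in other KO nuclei. In WT it had 26.0, 27.8, 32.6 and 28.9 ATAC CPM in myonuclei at E14.5, E18.5, P5 and in the adult, against 4.30, 2.32, 3.34 and 0.301 ATAC CPM in other nuclei, so its ratios were 8.56 in KO and 6.04, 12.0, 9.77 and 96.1 in WT. The next peak, at 14.3 kb, ran the other way in WT, with ratios of 0.390, 0.487, 0.437 and 0.369, but stood at 1.05 (0.749 to 1.46) in KO. A peak 134 kb after the start had ratios of 8.53 at E18.5 and 9.22 at P5, and in the adult 576 counts in myonuclei and 0 in other nuclei, at least 33.1-fold higher. Several peaks were called in the adult library alone, among them 1 at 2.91 kb with 235 counts in myonuclei and 0 in other nuclei, at least 13.5-fold higher. Over the gene, 3 of 9 Mef2c peaks were at least 2-fold higher and 0 lower in KO myonuclei than in other KO nuclei, beside 17.6% and 20.7% of all peaks. In WT 4 of 10 were higher and 2 lower at E14.5 (beside 22.5% and 15.5%), 6 of 15 and 4 at E18.5 (18.2% and 23.6%), 4 of 12 and 2 at P5 (18.6% and 22.9%), and 11 of 18 and 3 in the adult (30.9% and 25.8%). Peaks were called at unequal depth, with 5746384 peak counts in KO myonuclei and 11059160 to 38615909 in WT myonuclei, and the part of depth in these counts was not tested.

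Mef2d had 1 peak that was higher in myonuclei of all 5 libraries, 8.10 kb after its start, with 59.9 ATAC CPM in KO myonuclei and 16.9 ATAC CPM in other KO nuclei, a ratio of 3.54 (2.89 to 4.34), and ratios of 3.05, 4.61, 3.19 and 4.29 in WT. Other Mef2d peaks passed 2-fold in some libraries, at 20.1 kb (2.33 at P5 and 3.41 in the adult), 23.9 kb (3.70 and 4.01), 6.86 kb (2.70 at E18.5) and 1.90 kb (6.09 in the adult). In all, 1 of 3 Mef2d peaks was higher in KO, and 1 of 3, 2 of 4, 3 of 4 and 4 of 7 in WT at E14.5, E18.5, P5 and in the adult, with 0 lower. A peak of Mef2a 129 kb after its start was lower in myonuclei at E14.5 (0.436), E18.5 (0.327) and in the adult (0.151), and stood at 0.608 at P5. Higher in myonuclei were Mef2a peaks at 113 kb at E18.5 (2.00) and at 134 and 76.3 kb in the adult (5.51, 2.31 to 17.2, and 3.13, 1.39 to 8.71), so that 0 of 2 Mef2a peaks passed 2-fold in KO, while in WT 0 higher and 1 lower of 4 did at E14.5, 1 and 1 of 4 at E18.5, 0 of 3 at P5, and 2 and 1 of 6 in the adult. The 2 Srf peaks did not pass 2-fold in any library.

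**Figure D5:**
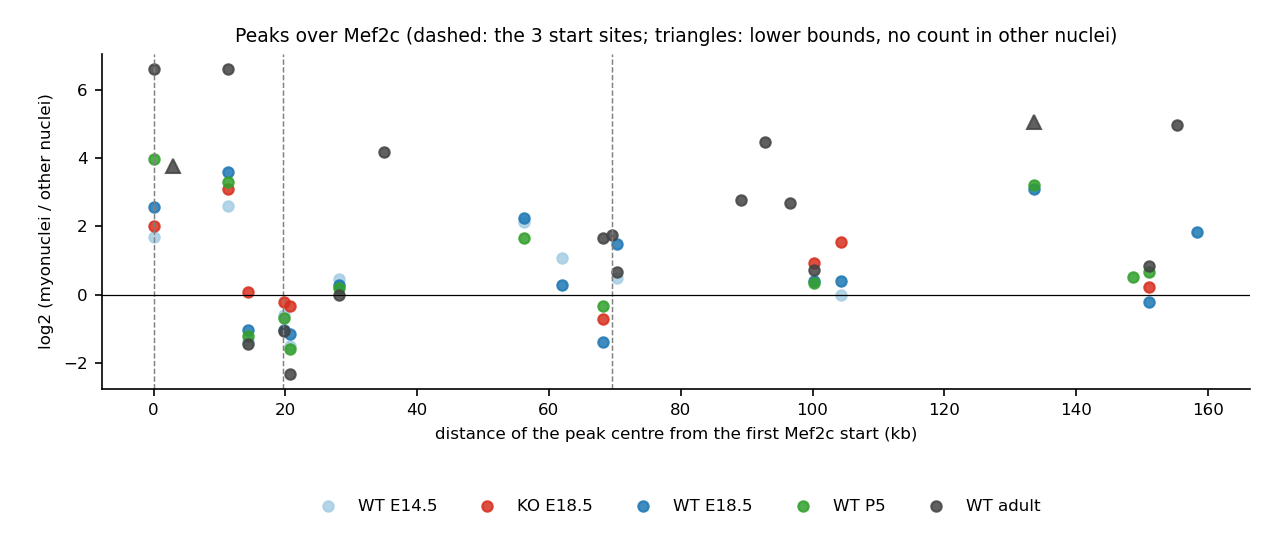
Peaks over the Mef2c gene by distance from its first start site (kb), against the log2 ratio of myonuclei over other nuclei, 1 colour per library, with dashed lines at the 3 start sites and triangles for lower bounds. The peaks at the first start and 11.3 kb after it are higher in myonuclei of all 5 libraries, and the peaks at 14.3 and 20.7 kb are lower in the 4 WT libraries, with ratios of 1.05 and 0.801 in KO.

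The regulators of MEF2 and SRF and a set of their known target genes were described in the same myonuclei, where 6.2% of all genes were at least 2-fold higher in KO and 5.52% lower. Of 6 MEF2 repressors, the class IIa deacetylases and corepressors, 0 passed 2-fold in KO over WT. Hdac4 had a ratio of 1.74 and Hdac9 and Hdac7 ratios of 0.574 and 0.570. Of 20 activating kinases, calcineurin subunits and coactivators, 1 was lower, Camk4, a calmodulin-dependent kinase, with 51 UMIs in KO and 136 UMIs in WT, a ratio of 0.428 (0.304 to 0.594), a share near that over all genes. Of 10 measured SRF cofactors, 2 were higher and 0 lower. These were Fhl2, a LIM-domain cofactor, with 86.9 CPM in KO and 32.7 CPM in WT (2.66, 2.37 to 2.99), and Hopx, with 188 UMIs in KO and 96 UMIs in WT (2.23).

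The known SRF targets did not move as 1 group. Of 7 immediate early genes, 4 were at least 2-fold higher in KO myonuclei and 0 lower, with a median log2 ratio of 1.06. Egr1, a zinc finger factor, had 44.0 CPM in KO and 17.1 CPM in WT (2.57, 2.19 to 3.03), Egr3 had 50 UMIs in KO and 21 UMIs in WT (2.72), Egr2 had 20 UMIs in KO and 5 UMIs in WT (4.56, 1.66 to 15.6), and Junb, an AP-1 subunit, had 77 UMIs in KO and 42 UMIs in WT (2.09). Fos, another AP-1 subunit, went the other way without reaching 2-fold, with 50 UMIs in KO and 105 UMIs in WT (0.543, 0.380 to 0.768), and the intervals of Ier2 (1.21) and Fosb (1.64) included 1. Of 12 actin cytoskeleton and contractile genes, 0 were higher and 2 lower, with a median log2 ratio of -0.67. Myl9, a myosin light chain of smooth muscle, had 7.20 CPM in KO and 28.3 CPM in WT (0.254), and Lmod2, which helps actin filaments reach their length, had 45.9 CPM in KO and 115 CPM in WT (0.4). Of 20 MEF2 targets 0 were higher and 2 lower, with a median of -0.47. Xirp2, an actin-binding protein of the intercalated disc and Z-disc, had 32.4 CPM in KO and 259 CPM in WT (0.125, 0.112 to 0.139), and Nr4a1, an orphan nuclear receptor, had 12.9 CPM in KO and 32.0 CPM in WT (0.402). The median over all genes was -0.03.

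The same lists were followed across the WT stages. For E18.5 over E14.5, 9 of 20 MEF2 targets were higher and 1 lower, beside 17.3% and 9.94% of all genes, led by Xirp2 (259 CPM at E18.5 and 1.18 CPM at E14.5), the creatine kinase Ckm (ratio 16.6) and Myoz1, a Z-disc protein (13.6), with the oxygen carrier Mb lower (0.236). Of 12 actin targets, 4 were higher and 0 lower, with a median log2 ratio of 0.76 beside 0.17 over all genes. These were Acta1 (4.18), Actg1 (2.86), Tpm1 (2.80) and Actb (2.31). Of 5 measured immediate early targets, 1 was higher, Fos (3.51, from 105 and 24 UMIs), and 0 lower. Of 10 SRF cofactors, 2 were higher, Mamstr, a MEF2 and SRF coactivator (5.22), and Hopx (3.66, from 96 and 21 UMIs). Myocd, myocardin, was the 1 that was lower (0.327). For P5 over E18.5, 4 of 20 MEF2 targets were higher, Xirp2 most (4.68), and 0 lower, beside 7.68% and 21.4% of all genes, while 5 of 12 actin targets were lower and 0 higher, among them Acta2 (0.161) and Actc1 (0.172), the smooth and cardiac actins of fetal muscle. Of 10 cofactors, 2 were higher and 0 lower. These were Mrtfb (4.05), a myocardin-related factor, and Abra (3.70), an actin-binding activator of SRF signaling. Of 6 measured immediate early targets, 2 were higher, Fosb (3.37, from 52 and 16 UMIs) and Fos (2.08), and 2 lower. The lower ones were Egr1 (0.239) and Egr3 (0.345, from 7 and 21 UMIs). For adult over P5, where 8.31% of all genes were higher and 33.8% lower, 9 of 12 actin targets were lower and 0 higher, with a median log2 ratio of -2.03 beside -0.40 over all genes, and 5 of 10 cofactors were lower and 0 higher, among them Elk3 (0.0317), an ETS factor, and Fhl2 (0.0336). Of 5 measured immediate early targets, 0 were higher and 3 lower, Ier2 (0.0516, from 2 and 24 UMIs), Egr1 (0.136) and Fos (0.370). Of 20 MEF2 targets, 3 were higher and 7 lower, the lower ones near the share over all genes, with the non-coding RNA Meg3 lowest (0.003). Of 20 activators, 1 was higher, Camk1d (8.40), and 6 were lower, again near that share, among them Prkd1 (0.125), protein kinase D, which acts on the class IIa deacetylases.

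The genes whose levels varied most like each member over 31 sums of library and class were set out as a description. The points share libraries and depth and are not independent. Mef2c was followed most closely by Nav2 (Pearson r 0.856), Lrrfip1 (0.805) and 2500002B13Rik (0.788), of 12190 genes compared. For Mef2d they were Lrrfip1 (0.851), Dusp27 (0.85) and Ppargc1b (0.847), for Mef2a Cbfa2t3 (0.726), B4galt5 (0.712) and Vasp (0.708), and for Srf, at its low counts, Cemip (0.713), Smim8 (0.703) and Sel1l3 (0.675). Among the members themselves Mef2c and Mef2d were most alike (0.639), Mef2a had 0.422 with Mef2c and 0.459 with Mef2d, and Srf lay between -0.03 and 0.25 with the other members.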

How the data were processed

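Count tables of 5 libraries (1 per group, so no replicates) were used as deposited: the authors had aligned RNA and ATAC reads with Cell Ranger ARC 2.0.0 to mm10 at default settings, which gives raw counts of UMIs by gene and of ATAC signal by peak, with peaks called per library. Following the study's methods, a nucleus was kept between 400 and 25000 UMIs, with a mitochondrial share below 10% and an ATAC total below 70000. A supplementary legend of the study also gives a lower ATAC limit of 400, which was applied here only as an alternative. Summed counts were divided by the class total, with exact Poisson intervals for levels, exact conditional intervals for ratios and exact binomial (Clopper-Pearson) intervals for shares. A gene or peak was measured with at least 20 counts in 1 of both sums, and a zero was set to 3 counts in a bound. Clustering used scanpy 1.11.5 and leidenalg 0.10.2 (resolution 1), on 3000 genes and 30 components. A cluster needed 20 nuclei for a name, and was unnamed where a second class's share of markers reached 0.75 of the leading one, both limits set after seeing the clusters. Doublets were called with Scrublet but kept, except in 1 alternative. Peaks were matched at 50% reciprocal overlap with bedtools 2.31.1, and TMM factors came from edgeR 4.0.16, with no test. Scripts were tested on simulated data. The members and gene lists were chosen with earlier results of these data known. All members are described. From each list, up to 4 genes with the largest ratio past 2-fold are named, with others added after their values were seen, and for each member the 3 genes with the highest Pearson correlation of log2(CPM + 1), among genes averaging at least 5 CPM. Start sites and promoter windows came from RefSeq tables of GRCm38.p6, gene spans from the reference annotation. Of the gene lists, 2 older cofactor symbols are not in the files. The study's own comparisons were not used.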

Additional observations from a re-analysis of the deposited data

Results flagged for a closer look

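Some ratios lay on opposite sides of 1 in different classes of nuclei of the same libraries, with both counting intervals clear of 1. The difference between classes was not tested in any of them, since each group had 1 library. Mef2a had a KO over WT ratio of 0.888 (0.828 to 0.952, from 2299 and 1239 UMIs) in myogenic progenitors and 1.66 (1.60 to 1.71) in myonuclei at E18.5. Its P5 over E18.5 ratio was 0.669 (0.580 to 0.769) in progenitors and 1.40 in myonuclei. Mef2c had a P5 over E18.5 ratio of 0.326 (0.227 to 0.455, from 38 and 406 UMIs) in progenitors and 1.45 in myonuclei, and an adult over P5 ratio of 1.91 (1.60 to 2.26, from 167 and 699 UMIs) in mesenchymal cells and 0.618 in myonuclei. Nearly all adult mesenchymal nuclei lay in a cluster with 6 of 13 myonuclear markers beside 9 of 10 mesenchymal ones. That cluster had 15164 CPM of Ttn, its nuclei above the Ttn cut included. The part of myonuclear RNA in the mesenchymal ratio was not tested. At the second Mef2c start, the KO over WT ratio of accessibility was 0.749 (0.646 to 0.866) in the other nuclei and 1.32 (1.06 to 1.62) in myonuclei.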

How the results depend on the processing

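Of 113 recomputed counts of members or start sites past 2-fold, 91 were unchanged and 22 moved. The 1 member past 2-fold for P5 over E18.5 (Srf) became 0 with Ttn of at least 2%, with named myonuclear clusters, with no filter on nuclei, without called doublets, without mixed clusters (chosen after seeing the data), with TMM or median-of-ratios factors, with the mean of single-nucleus CPM and with nuclei thinned to 1000 UMIs. Members at least 2-fold higher in myonuclei than in other nuclei became 1 in KO after thinning (2 otherwise). At E14.5 they became 2 with the mean of single-nucleus CPM and 3 after thinning (1 otherwise), and in the adult 2 when mitochondrial genes and Ttn were left out of the total (1 otherwise). Start sites higher in myonuclei became 2 at E14.5 (1 otherwise) and 1 in the adult (2 otherwise) per nucleus. The 1 start site lower in myonuclei became 0 at E14.5 and P5 with peaks within 250 bases and per nucleus, and 0 at E18.5 per nucleus and with no filter on nuclei. Start sites at least 2-fold higher in KO than in WT myonuclei became 1 (the third of Mef2c, 0 otherwise) over peaks matched between the libraries (chosen after seeing the data). KO over WT log2 ratios in myonuclei ranged over 12 alternatives from 0.64 to 0.88 for Mef2a, 0.22 to 0.34 for Mef2c, -0.39 to -0.29 for Mef2d and -0.30 to -0.05 for Srf. Over all comparisons 14 of 240 member ratios changed sign, none of them for KO over WT. For adult over E14.5 the count stayed at 1 after thinning and with the mean of single-nucleus CPM, but of another member, Mef2d at 0.95 and 0.97 and Mef2c at -1.11 and -1.18. In summed CPM, 6023 of all 14201 genes were at least 2-fold lower in that comparison. The causes were not tested. Depth limits Srf, with 65 to 137 UMIs in any library's myonuclei. Scrublet called no doublets at P5 and in the adult, so removing doublets changed 3 libraries only. No paired analysis was possible because each group had 1 library.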
